A study of Mus musculus with 13 samples.

Results

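Brown adipose tissue (BAT) of vehicle-injected mice was compared with white adipose tissue (WAT) of vehicle-injected mice, 2 arrays against 3, from a series of 13 arrays. All mice were male C57BL/6J; their age is not given. Both groups carried the genotype Fv2E-PERK, which the series title writes as mAP::Fv2E-PERK; what mAP stands for, and in which cells it drives the transgene, the labels do not say. Fv2E-PERK joins the kinase domain of PERK, the kinase that answers endoplasmic reticulum stress, to a domain that dimerises when the ligand AP20187 is given, and no mouse of the vehicle groups received that ligand. Vehicle (4% ethanol, 10% PEG-400 and 1.75% Tween-20 in water) was injected intraperitoneally and tissue was taken after 12 h, under a protocol that speaks of muscles although every sample is labelled WAT or BAT. The other 8 arrays hold BAT (2 arrays) and WAT (3 arrays) of Fv2E-PERK mice given AP20187 at 100 ng/g, and WAT of untreated wild-type mice (3 arrays).

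The members were taken by their titles, as BAT vehicle 2 and 3 and WAT vehicle 1 and 2, plus 1 array whose labels disagree. That array is titled and tissue-labelled BAT but has a WAT source name; it was placed in WAT by the source name and is called WAT vehicle 3. The spread (SD) of log2 differences over probes was 0.489 and 0.407 between it and WAT vehicle 1 and 2, against 1.44 and 1.33 between it and BAT vehicle 2 and 3. Results are given with it, and without it where that ends a call or moves a count by over 1.5 times. Which white depot was sampled is not labelled, nor is it stated that each array had its own mouse; every p-value therefore speaks for array-to-array spread alone, part of which may be technical. All BAT arrays lie on 1 slide and all WAT arrays on the other slides, so tissue and slide cannot be told apart.

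Brown fat burns fatty acids to make heat: its mitochondria carry UCP1, a protein of the inner membrane that lets protons return without making ATP. White fat stores triglyceride and secretes hormones such as leptin. The depots also keep different sets of developmental transcription factors, among them the Hox genes, which record position along the body axis. These 3 features give the markers by which the tissue labels were checked.

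A level below is log2 of the background-subtracted signal of a gene's probe over the 75th percentile of its array, so that 0 is that percentile and 1 unit is a doubling. It serves to compare arrays for 1 gene, not genes with each other. Ucp1 stood at 10.41 and 9.66 on BAT vehicle 2 and 3 and at -7.46, -5.52 and -4.82 on WAT vehicle 1, 2 and 3, where it was above background on 1 array of 3. The fitted difference was 15.97 (SE 0.71; limma, adjusted p = 2.5e-06), and 15.21 with the dim WAT arrays at their lowest signal well above background. Lep, which encodes leptin, ran the other way, with 0.04 and 1.45 in BAT against 4.16, 4.13 and 3.75 in WAT, a difference of -3.27 (SE 0.56; adjusted p = 0.0019). Hoxc9, a posterior Hox gene, was at 1.70, 1.82 and 2.05 in WAT and not well above background in BAT (-5.67 and -5.93), which puts it at least 50.1-fold lower in BAT (adjusted p = 2.6e-06). For all 3 markers the groups did not overlap, as held for 37.8% of all features with BAT above and 27.6% with BAT below, and the array with contradictory labels lay with WAT. The measurements come from pieces of tissue, so fewer cells of a type and less RNA per cell cannot be told apart in any result that follows.

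The BAT arrays were dimmer. On them 46.8 to 49.0% of spots were well above background, against 58.7 to 64.0% on the WAT vehicle arrays, and no spot was saturated. A bound such as the one for Hoxc9 ("at least") is the higher group's mean against the lowest signal well above background in the dim group, or the gene's own signal where that was higher. Every gene with a bound, Hoxc9, Hoxc8, Lhx8 and Msln among them, entered the test through its higher group alone. Its adjusted p rests on dim signals that are not measured levels, and its size adds no support beyond the bound. Between BAT vehicle 2 and 3 the SD of log2 differences was 0.776, against 0.407 to 0.593 between WAT vehicle arrays. Arrays outside the comparison carried epididymal secretory genes: all 19 listed were well above background on WAT AP20187 1 (mean level 7.57 over the 15 with a value), 18 on WAT AP20187 2 (mean -0.70) and 12 on wild-type WAT 3 (mean -2.73). On the 5 compared arrays 3 to 8 were, with means of -5.67 to -4.70. Those 3 arrays enter the estimate of spread but no vehicle mean.

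Of 26228 features tested (14726 of them named genes), 8533 (32.5%) passed an adjusted p of 0.05; 5129 (19.6%) were higher in BAT and 3404 (13%) lower. Of the lower calls, 1470 entered the test through WAT alone, and of the higher calls 249 through BAT alone; among features detected in both tissues 4851 were higher and 1934 lower. In that last set 122 were at least 10-fold higher and 111 at least 10-fold lower. Without WAT vehicle 3, 6273 of 27245 features passed (23.0%), 6152 of them among the 8533, and without BAT vehicle 2, 5310 passed. With the contradictory array placed in BAT instead, 0 passed with limma and 3472 had an unadjusted p below 0.05. The split by direction moves with the scaling and with the filter on dim probes. The share of calls that were higher in BAT was 60.1% here, 41.7% when the percentile was taken over probes detected on all arrays, 50.5% after quantile scaling, 52.7% after normexp with quantile scaling, 14.7% in the authors' value table, 81.2% with no filter on dim probes and 71.6% with a stricter one. The median difference over all features was 0.11, and -0.14, -0.0031, -0.0025, -0.63, 0.50 and 0.25 under those settings in turn; a member's difference is to be read against that median.

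Genes are grouped below by lists of known function or tissue, and the count of members called is to be read against the background of 19.6% higher and 13% lower. Lists and members were chosen with earlier results of these data known, and some lists hold known markers of brown or white fat. A count above that background is therefore a description and not a test. Promoter sequences are shown for 4 genes whose products make heat or feed the respiratory chain and that were higher in BAT, since the mitochondrial lists moved together. Each is the 250 bases before the RefSeq transcription start (GRCm38.p6), on the gene's strand from 5′ to 3′, with 1 motif in capitals. Ucp1 (chr8:83290098-83290347, + strand) and Sucla2 (chr14:73552536-73552785, + strand; a succinyl-CoA ligase subunit of the citrate cycle) hold AGGTCA, the half-site bound by nuclear receptors. Cycs (chr6:50566570-50566819, - strand; cytochrome c) holds TGACGTCA, the cAMP response element. Atp5k (chr5:108434400-108434649, - strand; a subunit of the ATP synthase) holds CGCATGCG, the core of the site of the factor NRF1.
Ucp1: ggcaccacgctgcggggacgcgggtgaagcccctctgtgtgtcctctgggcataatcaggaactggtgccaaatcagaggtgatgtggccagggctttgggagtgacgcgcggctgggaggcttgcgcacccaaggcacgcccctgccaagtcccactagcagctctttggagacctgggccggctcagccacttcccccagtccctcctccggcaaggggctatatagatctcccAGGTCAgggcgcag
Sucla2: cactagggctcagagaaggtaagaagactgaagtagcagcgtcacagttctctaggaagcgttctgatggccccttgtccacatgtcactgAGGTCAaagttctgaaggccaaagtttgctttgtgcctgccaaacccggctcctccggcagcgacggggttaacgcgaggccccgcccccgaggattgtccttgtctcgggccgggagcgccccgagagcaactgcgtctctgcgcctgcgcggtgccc
Cycs: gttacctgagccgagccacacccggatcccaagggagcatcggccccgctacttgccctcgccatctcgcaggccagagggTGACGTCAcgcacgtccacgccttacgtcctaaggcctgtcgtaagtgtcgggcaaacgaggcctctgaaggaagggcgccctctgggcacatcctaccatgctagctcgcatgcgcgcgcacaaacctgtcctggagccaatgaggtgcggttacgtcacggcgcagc
Atp5k: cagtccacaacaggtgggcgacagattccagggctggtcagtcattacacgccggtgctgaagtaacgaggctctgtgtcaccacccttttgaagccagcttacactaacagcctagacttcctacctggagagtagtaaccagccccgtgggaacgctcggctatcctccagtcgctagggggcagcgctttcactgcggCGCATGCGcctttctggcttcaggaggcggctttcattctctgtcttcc

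The motifs were searched on both strands in the same 250-base window of 32851 RefSeq starts. AGGTCA was in 14.0% of all windows, 11.8% of windows of tested genes, 13.2% of windows of genes higher in BAT and 13.9% of the 101 windows (92 genes) of mitochondrial list genes higher in BAT. TGACGTCA was in 1.55% of all windows and 2.35% of windows of tested genes. It was in 2.68% of windows of genes higher in BAT and 8.91% of the mitochondrial windows. Counted once per gene, it was found for 7 of 92 genes (Ndufa10, Mdh2, Ndufb2, Cycs, Ogdh, Uqcrfs1 and Ndufa11). That is 7.61%, against 2.78% of tested genes and 3.13% of genes higher in BAT. CGCATGCG was in 1.55%, 2.69%, 3.69% and 10.9% of those windows in turn. It was found for 10 of the 92 genes (Ndufa8, Etfdh, Acadm, Atp5k, Cox6a1, Cycs, Atp5l, Ogdh, Atp5g2 and Ndufa11). Per gene that is 10.9%, against 3.16% of tested genes and 4.18% of genes higher in BAT. The longer TCAAGGTCA, which contains AGGTCA and is the element of oestrogen-related receptors, was in 0.387% of all windows and in 0 of the 101. These shares were not tested, and a match of letters is a description of the window only.

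The genes furthest apart were of a few kinds. Among the 12 largest rises in BAT were 4 with a place in heat production or fatty acid use: Ucp1; Fabp3, a fatty acid carrier of oxidative tissue; Cpt1b, which admits long-chain fatty acids to the mitochondrion; and Cidea, a lipid droplet protein. Fabp3 stood at 8.71 and 8.74 in BAT and -1.90, -2.38 and -1.70 in WAT (difference 10.72, SE 0.54; adjusted p = 4.1e-06). The others were Perm1, a regulator of muscle oxidative metabolism (2.61 on both BAT arrays, not above background in WAT, at least 239-fold), Gldn, which encodes the node protein gliomedin (at least 273-fold), and 6 genes that skeletal muscle expresses (Myh4, Ttn, Myh8, Ckm, Tnnt3 and Ckmt2). The 12 largest falls were Hoxc9, the mesothelial genes Msln and Wt1, the liver-secreted Alb, Fgb, Ahsg and Fgg, and Mmp7, Ccdc153, Dao, Fam183b and Cdh16. All 12 were above background on no BAT array, so they entered the test through WAT alone and their order rests on BAT signals that are not measured levels. Fgb did not pass without WAT vehicle 3 (adjusted p = 0.051). On the WAT arrays each of the last 5 was highest on array 1 and lowest on array 2. Mmp7, a matrix-degrading enzyme, was at 3.18, 1.35 and 2.59 in WAT and at least 71.7-fold lower in BAT.

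**Figure D1:**
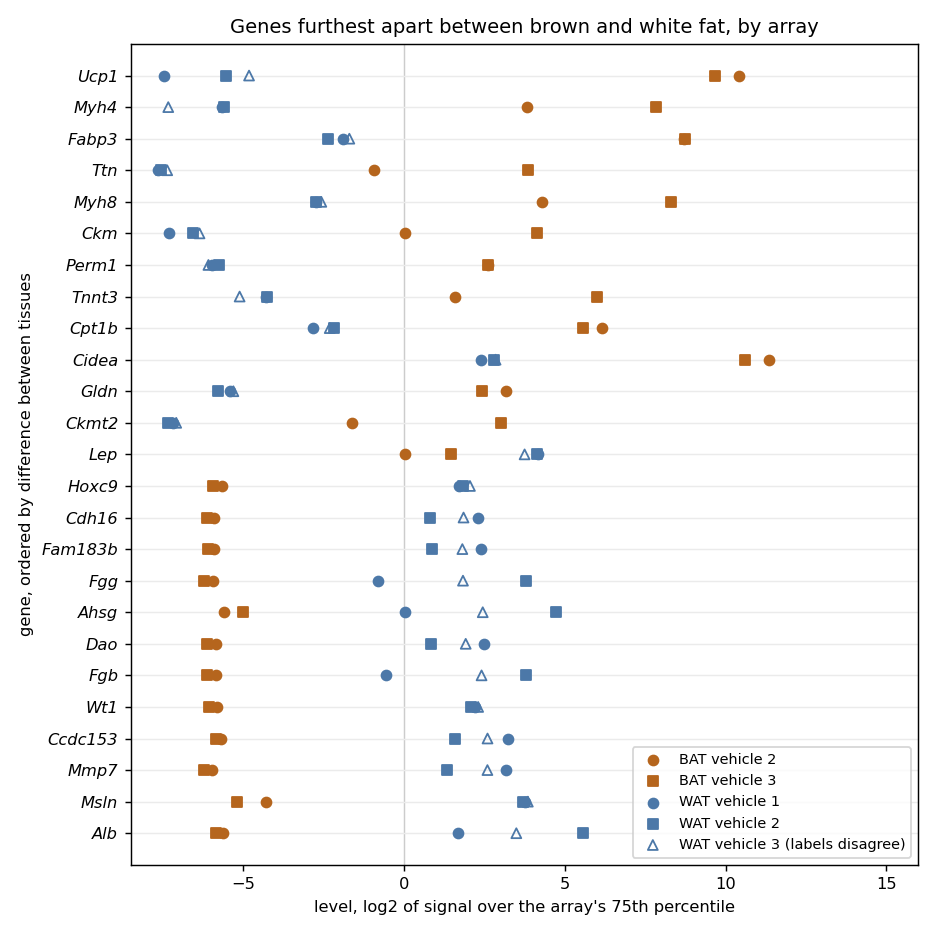
Level (log2 of signal over the array's 75th percentile) of the markers and the 12 largest rises and falls on each of the 5 arrays; orange symbols are BAT, blue symbols WAT, and the open triangle is the array whose labels disagree. Genes were chosen so that the BAT and WAT arrays do not overlap; Myh4, Ttn, Myh8, Ckm, Tnnt3 and Ckmt2 differ widely between both BAT arrays.

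Genes listed as thermogenic effectors or markers of brown fat were mostly higher in BAT: 18 of 20 passed the test and none fell, with a median difference of 4.68 (4.06 without BAT vehicle 2, 4.92 without BAT vehicle 3). Cox7a1, a cytochrome oxidase subunit of brown fat and muscle, was at 10.08 and 9.50 in BAT and 2.38, 3.16 and 2.90 in WAT (difference 6.97, SE 0.37; adjusted p = 4.6e-06). Cidea reached 11.34 and 10.62 against 2.38, 2.79 and 2.85 (8.31, SE 1.36; adjusted p = 0.0015). Both genes were high on each BAT array and low on each WAT array. Otop1, an acid-sensing proton channel, differed by 7.79 and Acot11, a thioesterase that splits acyl-CoA, by 7.77 (adjusted p = 3.4e-05 and 2.5e-05). Elovl3, a fatty acid elongase that rises in cold-exposed brown fat, was uneven between the BAT arrays, at 6.08 and -1.07 against -6.62, -2.02 and -4.30 in WAT; its adjusted p was 0.019, and 0.050 without WAT vehicle 3. The members that did not pass were Dio2, the deiodinase that activates thyroid hormone (2.74, adjusted p = 0.089), and Ucp3 (-0.39, adjusted p = 0.33).

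Of the regulators and receptors of brown fat, 13 of 19 tested were higher and 1 was lower (median 1.73; 7 higher and 1 lower in the authors' value table). Ppara, a fatty-acid-activated nuclear receptor, was at 5.49 and 6.51 in BAT and 1.06 to 1.21 in WAT (4.87, SE 0.85; adjusted p = 0.0021). The coactivator Ppargc1b was at 1.11 and 2.07 against -2.88 to -2.77 (4.43, adjusted p = 5.5e-05), and its better known relative Ppargc1a differed by 1.94 (adjusted p = 0.0018). The oestrogen-related receptors, which switch on mitochondrial genes, were all higher, by 2.13 (Esrra), 3.11 (Esrrb) and 3.97 (Esrrg). Esrrb had an adjusted p of 0.026, and 0.070 without WAT vehicle 3. Prdm16, the factor that sets brown against muscle identity in precursors, was higher by 2.89 (adjusted p = 0.0018). The beta-3 adrenergic receptor Adrb3, through which noradrenaline reaches adipocytes, stood at 6.80 and 6.70 in BAT and 6.89 to 7.25 in WAT (difference -0.29, SE 0.35; adjusted p = 0.57). Zbtb16, a zinc finger transcription factor, was the member that was lower (-2.44, SE 0.51; adjusted p = 0.0055). Elovl3, Ppargc1a, Esrra and Adrb3 above, and Atp5g2, Cox6b1, Cox6b2, Slc25a44, Ldha, Pdk3, Retn, Pax7, Ildr2 and the genes that missed the test below, were picked out after their values had been seen.

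Nearly every nuclear-encoded subunit of the respiratory chain was higher in BAT. In complex I, which takes electrons from NADH, 36 of 37 passed, with differences between 1.42 and 3.01 and a median of 2.16 (1.39 after quantile scaling, where 34 passed). The catalytic subunit Ndufv1 was at 9.62 and 9.02 in BAT and 6.28, 6.27 and 6.39 in WAT (3.01, SE 0.20; adjusted p = 2.6e-05). Ndufa6 did not pass although its difference was 2.16 (SE 2.0): it was at 7.69 and 7.29 in BAT and 5.25 to 5.40 in WAT, and at -2.25 on the array WAT AP20187 1, which enters the spread. In complexes II and III 13 of 14 passed (median 2.47), led by Cyc1, cytochrome c1, with 3.08 (SE 0.32; adjusted p = 0.00013). Cycs, which ferries electrons between complexes III and IV and whose promoter is shown above, was at 9.34 and 8.93 in BAT and 6.33 to 6.38 in WAT (2.78, SE 0.26; adjusted p = 7.5e-05). In complex IV, cytochrome oxidase, 16 of 16 passed (median 2.29). All complex I members were measured above background on all 5 arrays, and 36 of 37 were higher on BAT vehicle 2 than on BAT vehicle 3.

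The ATP synthase was split. Of its 16 members 11 were higher (median 1.99), among them Atp5d of the central stalk (2.48, adjusted p = 0.0001), the catalytic Atp5b (2.21, adjusted p = 0.00015) and Atp5k (2.20, adjusted p = 0.00032). Atp5g1, one of 3 genes for the c subunit that forms the proton-driven ring, was at 2.81 and 5.10 in BAT against 5.39 to 5.41 in WAT (-1.44, SE 0.52; adjusted p = 0.059), Atp5g3 differed by -0.25 (adjusted p = 0.49), and Atp5g2 was higher by 1.36 (adjusted p = 0.00045). Atpif1, the protein that inhibits the enzyme's reverse reaction, was at 3.95 and 4.95 against 5.08 to 5.51 (-0.85; adjusted p = 0.050). The 5 members that did not pass were these 2 c subunit genes, Atpif1, Atp5c1 (0.86) and Atp5j (0.13). After quantile scaling 10 members were higher and 3 lower.

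Several families have 1 member typical of brown fat or muscle and 1 found more widely, and within them the differences were unequal. Cox7a1 differed by 6.97 and its partner Cox7a2 by 2.03. Cox8b differed by 5.06 and Cox8a by 1.62. Cox6a2 differed by 5.80 (SE 1.52), with 0.26 and 5.28 on BAT vehicle 2 and 3, and Cox6a1 by 2.08. These 6 genes encode alternative forms of 3 cytochrome oxidase subunits. In another pair Cox4i1 differed by 1.98 and Cox4i2, a form known from lung, by 0.97, and in a further one Cox6b1 by 2.43 and Cox6b2, a form known from testis, by 1.29. Cpt1b was higher by 8.31 while Cpt1a, its counterpart known from liver, fell by 2.24 (SE 0.19; adjusted p = 4.7e-05); Cpt1a was at 0.22 and 0.65 in BAT and 2.58 to 2.76 in WAT. The uncoupling protein relatives Ucp2 (-0.89, adjusted p = 0.066) and Ucp3 (-0.39, adjusted p = 0.33) did not pass. The differences between partners were not tested.

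**Figure D2:**
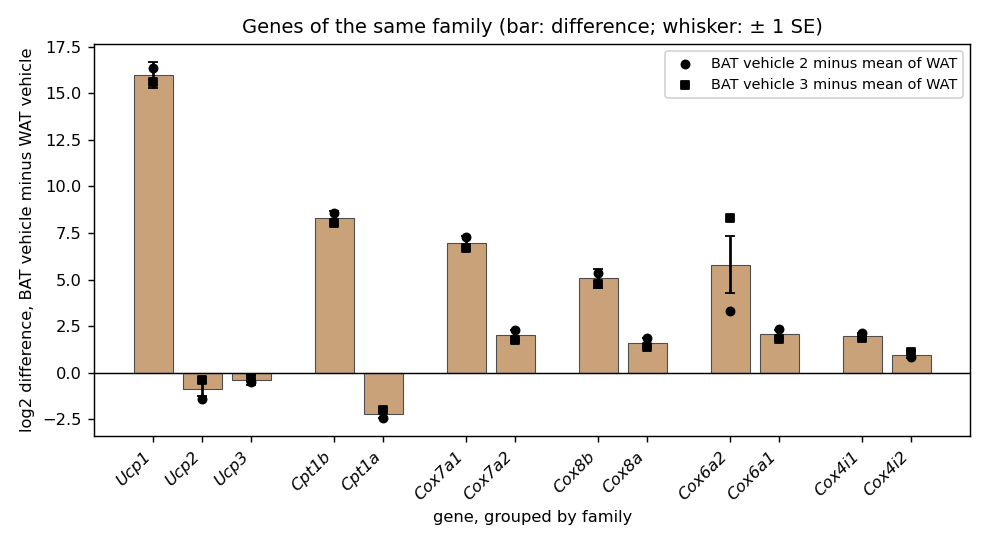
Log2 difference, BAT vehicle minus WAT vehicle, for genes of the same family; the bar is the fitted difference, the whisker 1 SE, and the points each BAT array minus the mean of the 3 WAT arrays. Ucp1, Cpt1b, Cox7a1, Cox8b and Cox6a2 exceed their partners, and the points for Cox6a2 lie far apart.

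Fuel enzymes of the mitochondrial matrix were also higher. In the citrate cycle 14 of 15 passed (median 2.69), led by Sucla2, at 8.98 and 8.80 in BAT and 4.97 to 5.14 in WAT (3.84, SE 0.31; adjusted p = 4.1e-05). Pcx, pyruvate carboxylase, was the member that did not pass (-0.22, adjusted p = 0.69). Of the genes of fatty acid import and oxidation 20 of 24 were higher and 1, Cpt1a, was lower (median 2.36). Acaa2, the thiolase of the last step of the cycle, was at 10.39 and 10.28 against 5.99 to 6.17 (4.28, SE 0.22; adjusted p = 4.1e-06). Both subunits of the trifunctional protein, Hadha (3.17) and Hadhb (3.55), and the acyl-CoA dehydrogenases Acadvl (3.38) and Acadl (3.24) passed. Slc27a1 and Slc22a5, carriers of fatty acids and carnitine at the cell surface, did not (-0.88 and 0.30).

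Mitochondrial ribosomal proteins, which translate the genes of mitochondrial DNA, were shifted by less: 65 of 77 were higher and none lower, with a median of 1.19. The count was 54 without WAT vehicle 3, 40 without BAT vehicle 2, 50 after quantile scaling and 10 in the authors' value table, where the median was 0.40. Mrps36 was the furthest, at 7.13 and 6.69 in BAT and 3.54 to 3.69 in WAT (3.30, SE 0.23; adjusted p = 1.9e-05); its product is also known as a part of the 2-oxoglutarate dehydrogenase complex. Of the SLC25 carriers of the inner membrane, 18 of 41 tested were higher and 3 lower (8 and 2 without BAT vehicle 2). Slc25a20, the carnitine-acylcarnitine carrier, differed by 2.92 (adjusted p = 0.00085), and Slc25a25, an ATP-magnesium and phosphate carrier, by -2.07 (adjusted p = 0.0017). Slc25a44, a carrier of branched-chain amino acids in brown fat, differed by 1.69 (adjusted p = 0.0043).

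**Figure D3:**
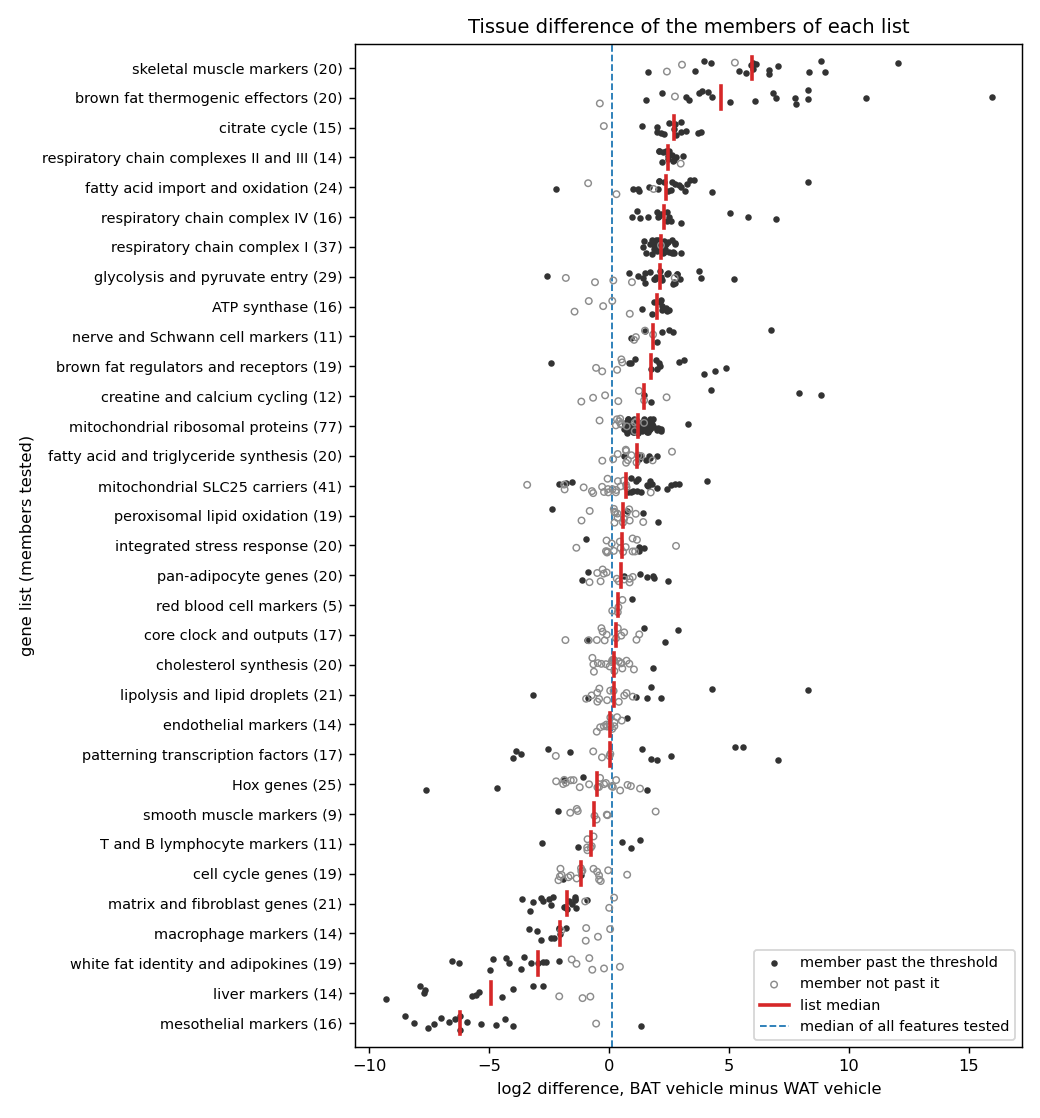
Log2 difference, BAT vehicle minus WAT vehicle, of each tested member of the lists with 5 or more tested; filled points passed an adjusted p of 0.05, the red bar is the list's median, and the dashed line is the median of all features (0.11). The lists run from skeletal muscle markers (median 5.95) to mesothelial markers (-6.22).

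Glycolysis and the entry of pyruvate into mitochondria were higher in BAT at 23 of 29 genes and lower at 1 (median 2.10; 17 higher after quantile scaling). Ldhb, the lactate dehydrogenase form of oxidative tissue, was at 8.11 and 7.82 in BAT against 4.16 to 4.32 in WAT (3.73, SE 0.19; adjusted p = 4.1e-06), whereas Ldha differed by 1.19 (adjusted p = 0.0079). Hexokinase Hk2 differed by 2.83 (adjusted p = 0.00031) and pyruvate kinase Pkm by 2.81 (adjusted p = 4.9e-05). Of the kinases that shut pyruvate dehydrogenase, Pdk4 was higher by 3.84 (adjusted p = 0.00044) and Pdk3 was lower (-2.58, adjusted p = 7.4e-05). Pdk1 and Pdk2 did not pass. Pgam2 and Eno3, the muscle forms of their enzymes, were higher by 5.21 and 2.96, but on BAT vehicle 2 and 3 Pgam2 stood at 0.33 and 4.33 and Eno3 at 2.22 and 5.67, in the order of the muscle genes described below. In the list of creatine and calcium cycling 5 of 12 were higher: Ckm, Ckmt2 and Atp2a1, all muscle genes, and Ckmt1 (1.76) and the creatine transporter Slc6a8 (1.44), which differed little between the BAT arrays (4.22 and 3.98, and 3.89 and 3.88).

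Synthesis of fatty acids and triglycerides did not give a firm result. In all, 7 of 20 genes were higher and none lower (median 1.17), but 3 were higher without WAT vehicle 3, 2 without WAT vehicle 2, 3 without WAT vehicle 1, 10 without BAT vehicle 3 and 0 without BAT vehicle 2 (median 0.47). The acetyl-CoA carboxylase Acacb was at 7.67 and 6.26 in BAT and 4.75 to 5.18 in WAT (1.99, SE 0.55; adjusted p = 0.021), and the phosphatidate phosphatase Lpin1 differed by 1.68 (adjusted p = 0.0078). Scd1, the stearoyl-CoA desaturase, was higher by 1.30 (adjusted p = 0.012) but at -0.018 after normexp with quantile scaling; Thrsp was higher by 1.22 (adjusted p = 0.049, and 0.13 without WAT vehicle 3) but at -0.061 after quantile scaling. For cholesterol synthesis 1 of 20 passed, Fdft1, which makes squalene (1.83, adjusted p = 0.0051), with a median of 0.19 that became -0.43 without BAT vehicle 2 and 0.91 without BAT vehicle 3. In the peroxisome 3 of 19 were higher and 1 lower (6 and 1 without BAT vehicle 3). The peroxisomal shares with all arrays were 15.8% higher and 5.26% lower, against 19.6% and 13% of all features. Phyh, which hydroxylates branched fatty acids before they are shortened, was higher by 2.02 (adjusted p = 0.00034), and Abcd2, a peroxisomal fatty acid transporter, was at -1.54 and -1.18 in BAT and 0.94 to 1.23 in WAT (-2.40, adjusted p = 0.0068).

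Genes that all adipocytes share showed no common direction. Of 20, 6 were higher (30%, against 19.6% of all features) and 2 lower (10%, against 13%). Without WAT vehicle 3, 5 were higher and none lower. The median of 0.50 became -0.31 after quantile scaling, with 2 higher and 8 lower. Adipoq, which encodes adiponectin, stood at 8.37 and 8.44 in BAT and 8.64 to 8.92 in WAT (-0.36, SE 0.31; adjusted p = 0.43). Fabp4, the main adipocyte fatty acid carrier, was at 10.90 and 10.43 against 9.35 to 9.41 (1.28, adjusted p = 0.00058), but its difference was -0.19 after quantile scaling and -0.29 after normexp with quantile scaling. Gpd1, which makes the glycerol backbone of triglyceride, was higher by 2.47 (adjusted p = 0.00015), the glucose transporter Slc2a4 by 1.83 (adjusted p = 0.013) and the triglyceride lipase Pnpla2 by 1.59 (adjusted p = 0.0052). Among coat proteins of the lipid droplet, Plin5, which tethers droplets to mitochondria, was at 6.80 and 6.88 in BAT and 2.47 to 2.60 in WAT (4.31, SE 0.42; adjusted p = 9.6e-05), and Plin1 differed by 0.40 (adjusted p = 0.33). The lipolysis list as a whole had 6 of 21 higher and 2 lower (4 and 1 without WAT vehicle 3). With all arrays its shares were 28.6% higher and 9.52% lower, against 19.6% and 13% of all features. Among the lower was Adra2a, the receptor through which noradrenaline restrains lipolysis, at least 5.2-fold lower in BAT (adjusted p = 0.00038).

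Genes of white fat and its hormones were lower in BAT: 13 of 19 tested fell and none rose, with a median of -2.98 (-2.56 without BAT vehicle 2, -3.61 without BAT vehicle 3). Agt, which encodes angiotensinogen, was at -2.95 and -4.41 in BAT and 3.24, 2.45 and 2.92 in WAT (-6.55, SE 0.46; adjusted p = 2e-05). Slc7a10, a transporter of small neutral amino acids that marks white adipocytes, was at -0.17 and 0.20 against 4.76, 4.94 and 4.83 (-4.83, SE 0.25; adjusted p = 8.6e-06). The WAT arrays lay close together for both genes and far above BAT. Retn, which encodes resistin, differed by -3.66 (adjusted p = 2.3e-05) and Psat1 of serine synthesis by -4.30 (adjusted p = 0.00054). Mest, a gene that rises when fat expands, was uneven in BAT, at -3.37 and 0.85 against 3.20 to 4.25 (-4.98, SE 1.08; adjusted p = 0.0066). Rb1, Gpr182, Igfbp3, Sfrp5, Ednra and Trem2 did not pass.

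Developmental transcription factors differed in both directions. Of 17 tested of 25 listed, 7 were higher and 5 lower, with a median of 0.01. Only 9 of the 17 were above background on all 5 arrays. Another 3 were so on no WAT array and 3 on no BAT array, and these entered the test through the other tissue alone. Lhx8, a LIM homeobox gene, was at -0.0031 and -0.26 in BAT and not above background in WAT (at least 35.6-fold higher; adjusted p = 2.2e-07). The T-box genes Tbx15 (at least 14.3-fold) and Tbx5 (5.24, adjusted p = 0.00035) were higher too. So was Pax7, a marker of the dermomyotome that brown fat shares with muscle (at least 5.76-fold). Skeletal muscle RNA was present on the BAT arrays, as given below, and its part in the Pax7 difference was not tested. On the other side Tcf21, a factor of visceral mesenchyme, was at least 6.9-fold lower, and Osr1 (-4.00, adjusted p = 0.0001) and Gata6 (-3.68, adjusted p = 0.00024) fell. Zic1, often used as a brown fat marker, was at -2.26 and -2.08 in BAT and -2.46 to -2.02 in WAT (0.05, SE 0.20; adjusted p = 0.89).

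Of 39 Hox genes 25 could be tested, and 4 were lower (16%, against 13% of all features) and 1 higher (4%, against 19.6%). Hoxc8 and Hoxc9 lie side by side in the HoxC cluster and were the furthest apart between tissues. Hoxc8 was at 0.34 to 0.47 in WAT and not above background in BAT (at least 18.1-fold lower; adjusted p = 1.8e-05). Toward the anterior end of the same cluster, Hoxc6 was at 3.30 and 3.38 in BAT and 3.95 to 4.43 in WAT (-0.84, adjusted p = 0.10), Hoxc5 differed by 0.46 and Hoxc4 by -0.21. Hoxb5 (-1.90, adjusted p = 0.00048) and Hoxb3 (-1.11, adjusted p = 0.019) were lower, and Hoxa4, an anterior gene, was higher (1.60, adjusted p = 0.0041).

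Skeletal muscle genes were present in the BAT samples, and unequally so. Of 24 listed, 20 were tested and 17 were higher (median 5.95). Of the 20 tested, 4 were above background on no WAT array and entered the test through BAT alone. The median was 3.71 without BAT vehicle 3 and 8.03 without BAT vehicle 2. The last median also holds Myh7, Mylpf, Tnni1 and Xirp2. Those genes were well above background on BAT vehicle 3 and not on BAT vehicle 2, so they entered through BAT vehicle 3 alone. The mean level over the 24 genes was -0.32 on BAT vehicle 2 and 4.43 on BAT vehicle 3, and 3.54 and 2.80 on the BAT arrays of AP20187-treated mice, against -3.78 to -3.25 on the WAT vehicle arrays. Myh4, a fast myosin heavy chain, was at 3.84 and 7.83 in BAT and not above background in WAT (at least 2229-fold). Ttn, which encodes titin, was at -0.92 and 3.85 (at least 108-fold), and Tnni2, a fast troponin, at 3.67 and 8.04 against -1.38 to -0.89 (7.03, SE 1.07; adjusted p = 0.00097). In each case BAT vehicle 3 lay above BAT vehicle 2. Cox7a1, Cox8b, Cpt1b, Fabp3 and Perm1, which muscle expresses as well, differed by less than 1 unit between the BAT arrays, and Ucp1 was higher on BAT vehicle 2. Cox6a2, Ckmt2, Pgam2 and Eno3 were over 3 units higher on BAT vehicle 3 than on BAT vehicle 2. The part of muscle RNA in any of these differences was not tested.

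Mesothelial markers ran the opposite way. The mesothelium is the sheet of cells that covers visceral organs and visceral fat. Of 16 genes 14 were lower in BAT and 1, Ildr2, was higher; 11 were above background on no BAT array and so entered the test through WAT alone. The median was -6.22, or -4.84 with those 11 at their bounds. Msln was at 3.75, 3.71 and 3.85 in WAT (at least 189-fold lower in BAT; adjusted p = 1.5e-05), Wt1 at 2.21, 2.10 and 2.30 (at least 63.6-fold) and the keratin Krt18 at 3.62, 3.30 and 3.46 (at least 138-fold). The mean level of the list was 1.26 to 1.64 on WAT vehicle arrays and -4.01 and -4.00 on BAT. WAT of wild-type mice lay at 1.31 to 1.51 on the same measure.

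Liver-secreted genes were found on the WAT arrays at 3 different heights. Of 14 tested 11 were lower in BAT (8 without WAT vehicle 2 or without the contradictory array, 6 without BAT vehicle 2, 7 without BAT vehicle 3), and 9 entered through WAT alone. The mean level was -0.34, 3.05 and 1.44 on WAT vehicle 1, 2 and 3, and -3.21 and -3.70 in BAT. Alb, albumin, followed that order, with 1.67, 5.57 and 3.49 in WAT, and was at least 165-fold lower in BAT (adjusted p = 0.0078); Ahsg and Fgg did the same. Cyp2e1, an enzyme that white adipocytes also express, did not: it was at 8.72, 8.05 and 8.46 in WAT and 4.08 and 1.28 in BAT (-5.73, SE 0.73; adjusted p = 0.00038).

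Macrophage genes were lower in BAT at 9 of 14, with none higher (median -2.07; 4 without BAT vehicle 2). Their mean level was 0.58 and 1.49 in BAT and 2.87 to 2.98 in WAT. Clec10a, a lectin of tissue macrophages, was at 1.29 and 0.83 against 3.97 to 4.13 (-3.01, SE 0.37; adjusted p = 0.0003), and the mannose receptor Mrc1 at 0.52 and 1.33 against 3.30 to 3.40 (-2.43, adjusted p = 0.0013). Itgam did not differ by more than its error (0.04, SE 0.23). Genes of fibroblasts and matrix were lower at 18 of 21 and higher at none (median -1.77), with list means of 1.89 and 2.40 in BAT and 3.93 to 4.08 in WAT. Fibronectin, Fn1, was at 2.22 and 3.43 in BAT and 5.86, 6.46 and 6.06 in WAT (-3.30, SE 0.45; adjusted p = 0.00057), and Fbln1 was lower by more (-3.65, SE 0.27; adjusted p = 2.3e-05). Sparc, a matrix protein that adipocytes make too, was at 9.16 and 9.66 against 9.36 to 9.46 (difference 0.0018, SE 0.20).

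Nerve and Schwann cell markers were higher in BAT at 7 of 11 tested (median 1.83), and none was lower. S100b, a calcium-binding protein of Schwann cells that brown adipocytes are known to secrete as well, was at 6.04 and 6.30 in BAT and -1.01, 0.04 and -0.74 in WAT (6.74, SE 0.51; adjusted p = 2.8e-05). Prx, a protein of myelinating Schwann cells, differed by 2.19 and the Schwann cell factor Sox10 by 1.48 (adjusted p = 0.0034). Th, tyrosine hydroxylase of sympathetic nerves, was at 2.42 and 1.72 in BAT and -0.13 to 0.28 in WAT (2.01, SE 0.38; adjusted p = 0.0031).

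**Figure D4:**
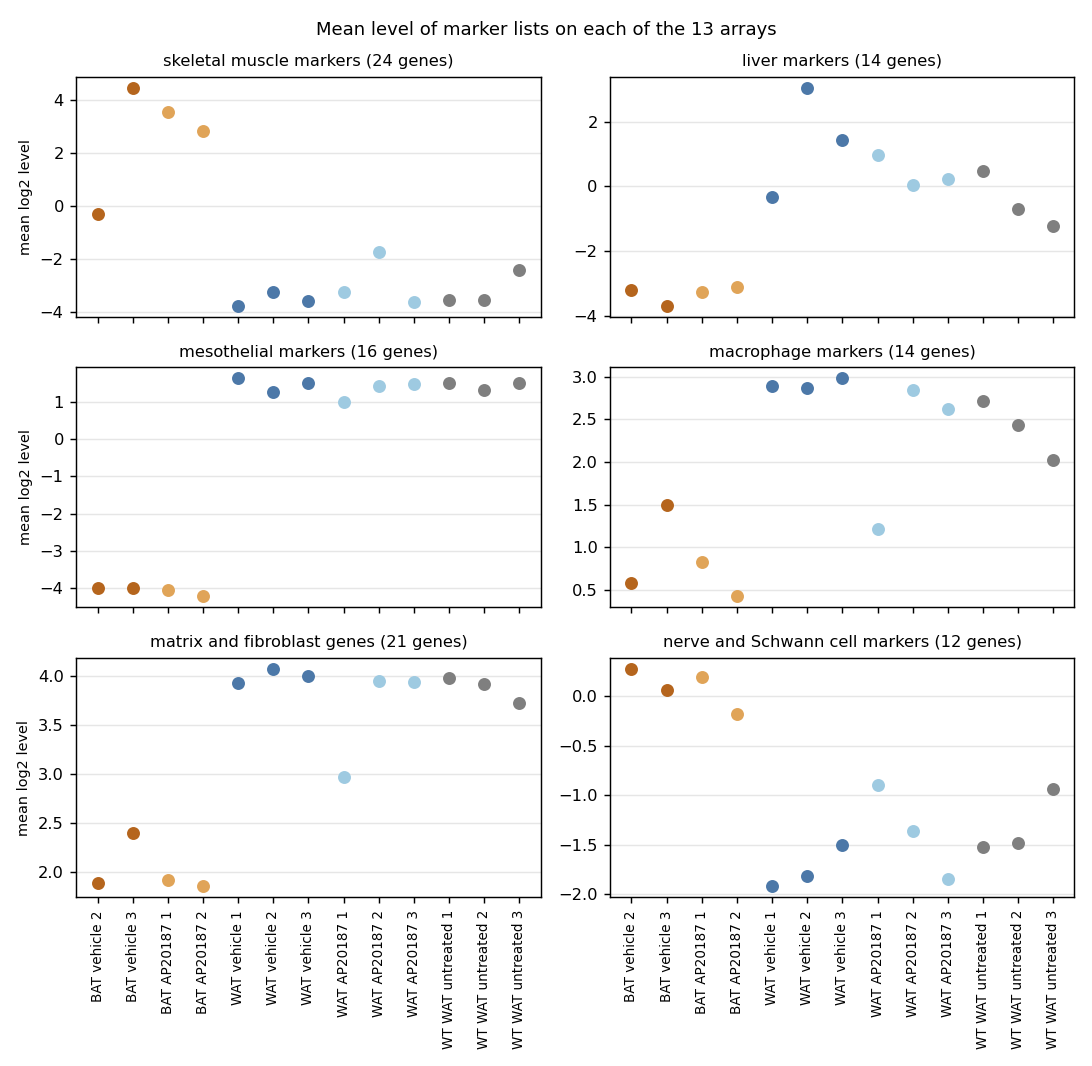
Mean log2 level of 6 marker lists on each of the 13 arrays, by tissue and treatment. Skeletal muscle markers range from -0.32 to 4.43 on the BAT arrays, liver markers from -0.34 to 3.05 on the WAT vehicle arrays, and mesothelial markers lie between -4.22 and -4.00 on the BAT arrays.

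Other cell types gave little. Of 14 endothelial genes 1 passed, Kdr, a receptor for VEGF (0.75, adjusted p = 0.036), which did not pass without WAT vehicle 3 (adjusted p = 0.063) and was at -0.033 in the authors' value table. Of 9 smooth muscle genes 1 passed (11.1% lower, against 13% of all features), the kinase Mylk (-2.13, adjusted p = 0.020). Of 11 lymphocyte genes 3 were higher and 2 lower (2 and 1 without WAT vehicle 3). With all arrays the shares were 27.3% higher and 18.2% lower, against 19.6% and 13% of all features. Cd2 differed by -2.79 (adjusted p = 0.012) and Cd22 by 1.28 (adjusted p = 0.00036). Cd3e was higher by 0.52 (adjusted p = 0.040, and 0.11 without WAT vehicle 3) but at -0.25 in the authors' value table. Of 5 red blood cell genes Hba-a2 passed (0.96, adjusted p = 0.029), but not without WAT vehicle 3 (adjusted p = 0.072), and it was at -0.37 after quantile scaling; it has a near-identical copy, Hba-a1, so its probe may read both. Of 19 cell cycle genes 2 were lower (10.5%, against 13% of all features), Ccnb2 (-1.93, adjusted p = 0.044) and Bub1b (-1.17, adjusted p = 0.022). That count was 13 without BAT vehicle 3 and 0 without BAT vehicle 2 or without the contradictory array, and the list's mean level was -2.83 and -1.24 on those arrays in the order 2, 3.

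The integrated stress response is the pathway that PERK starts: it slows translation and lets the factors ATF4 and CHOP act on their targets. Without AP20187, 3 of its 20 genes were higher in BAT and 1 lower (2 and none without WAT vehicle 3, 5 and none without BAT vehicle 3, none without BAT vehicle 2). With all arrays the shares were 15% higher and 5% lower, against 19.6% and 13% of all features. Eif2ak3, which encodes PERK itself, was at 0.71 and 0.67 in BAT and 0.70 to 0.92 in WAT (-0.11, SE 0.15; adjusted p = 0.61). Whether its probe reads the transgene as well was not tested. Atf5, a stress-induced transcription factor, was at 8.01 and 7.72 against 6.32 to 6.57 (1.45, adjusted p = 0.019, and 0.053 without WAT vehicle 3), and the phosphatase subunit Ppp1r15b differed by 1.24 (adjusted p = 0.0080). Atf4 (0.98, adjusted p = 0.072), Ddit3, which encodes CHOP (0.98, adjusted p = 0.094), and Fgf21, a hormone of stressed tissue (2.79, adjusted p = 0.075), did not pass. Of 17 clock genes 3 were higher and 1 lower (1 and none without BAT vehicle 3). The clock shares with all arrays were 17.6% higher and 5.88% lower, also below those of all features. The repressor Bhlhe40 was at 3.72 and 2.50 against -0.19 to 0.62 (2.88, adjusted p = 0.0006), Nr1d1, which encodes REV-ERB alpha, differed by 2.33 (adjusted p = 0.014), and Rora by -0.93 (adjusted p = 0.024), whereas Arntl and Clock did not pass (-0.51 and -0.32).

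The same tissues were also compared on the arrays of AP20187-treated mice, which share no array with the vehicle comparison but share the BAT slide, 1 of the WAT slides and the estimate of spread. There 8827 features passed (33.7%), 4678 higher (17.8%) and 4149 lower (15.8%). WAT AP20187 1 and 2, which carried the epididymal genes described above, enter the WAT mean of this comparison. The mean level of that list was 7.57 (over the 15 with a value) and -0.70 on them, against -5.23 on WAT AP20187 3. Without WAT AP20187 1, 10063 features passed, and 8695 without WAT AP20187 2. Of the 8533 vehicle calls 7693 (90.2%) had the same direction, against 73.0% of all features, and 5115 passed in the same direction (59.9% of the vehicle calls and 57.9% of the AP20187 calls). Of the 176 named genes called in vehicle, 171 had the same direction and 152 of these passed. Ucp1 was at 9.66 and 10.25 in BAT and -4.48, -4.47 and -3.70 in WAT (14.17). Lep differed by -4.45 and Hoxc9 by -7.97, so all 3 markers kept their direction. The 5 called genes that changed direction were Zbtb16 (-2.44 with vehicle, 1.58 with AP20187, adjusted p = 0.038), the stress gene Nupr1 (-0.95 and 1.01, adjusted p = 0.022), Rora (-0.93 and 0.55), Acaca (1.52 and -0.026) and Thrsp (1.22 and -0.043). Without WAT vehicle 3 the vehicle calls of Nupr1, Acaca and Thrsp were lost (adjusted p = 0.071, 0.073 and 0.13). None of these passed the test of the difference itself, with adjusted p of 0.057 for Zbtb16 and 0.067 for Nupr1. Over all features that test called 10 (0.0381%; 4653 at an unadjusted p below 0.05).

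**Figure D5:**
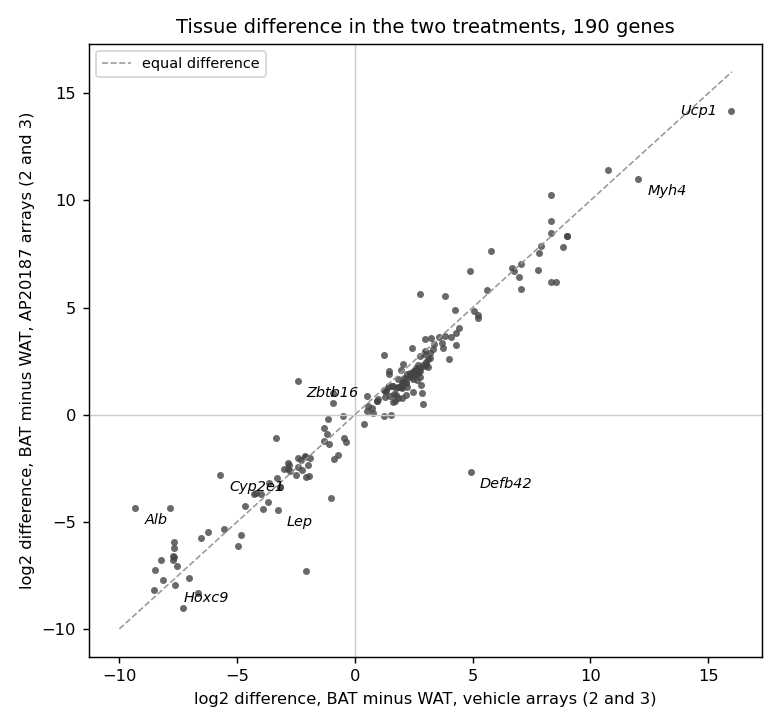
Log2 difference between BAT and WAT of 190 named genes in vehicle arrays (horizontal; 2 and 3 arrays) and in AP20187 arrays (vertical; 2 and 3 arrays); the dashed line marks equal differences. Ucp1 lies at 15.97 and 14.17, and Zbtb16 at -2.44 and 1.58.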

How the data were processed

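RNA of fat tissue, labelled with Cy3, was read on 13 one-colour Agilent arrays. The values used are spot intensity after background subtraction and spatial correction, as the authors deposited it; Feature Extraction 10.7.1.1 and build mm9 are named per the file headers. The authors' value table holds the same signal, to within 0.1% for 98.95 to 99.15% of the values it gives, and is blank for 35.7 to 39.2% of probes on BAT vehicle and 20.6 to 26.4% on WAT vehicle arrays. The number of arrays limits the precision.

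From it, log2 of the processed signal minus the array's 75th percentile was computed. Outlier spots were dropped (1313 missing values left) and spots of a probe averaged. Of 55681 probes 26574 matched the RefSeq accession of 1 gene (table of GRCm38.p6), 57 several and 29050 none; symbols named only so. The probe with the highest mean stood for its gene. A feature was kept if all arrays of BAT vehicle, or all of WAT vehicle, had it well above background. The arrays were fitted in 5 groups with limma 3.58.1 (lmFit, eBayes; R 4.3.3), Benjamini-Hochberg adjusted, threshold 0.05; the script was tested on simulated data. Alternatives were the placement of the contradictory array, scaling, normexp (offset 50, on median spot signals), the authors' table, filters, prior, slide as random block, a replicate block and each array left out.

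Named genes were the 3 markers, the 12 largest rises and falls among called genes whose groups do not overlap, with established symbols and a probe above background in the whole higher group, up to 6 called members of each of 34 lists by size (or, where fewer than 3 passed, up to 3 by p), and isoform partners. Members and lists were chosen with earlier results of these data known. No column of another sample was found. A longer form of the NRF1 site was searched first and gave fewer matches. Promoter windows are RefSeq's; 92 of the 110 mitochondrial list genes higher in BAT matched.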

Additional observations from a re-analysis of the deposited data

Results flagged for a closer look

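The tissue difference itself differed between AP20187 and vehicle arrays for 10 features by limma's interaction test; 7 are probes without a gene name. Rab3a, a small GTPase of vesicle release, was higher in BAT with vehicle (3.39 and 3.46 in BAT; 1.91, 2.25 and 2.13 in WAT; difference 1.33) and lower with AP20187 (2.66 and 2.60; 3.22, 3.61 and 3.58; difference -0.84; adjusted p of the interaction 0.034). Snhg12, a non-coding RNA gene, changed from -0.62 to 1.62 and Ssh2, a cofilin phosphatase, from 0.04 to 3.40 (adjusted p = 0.034 for both). The count was 0 without any single WAT vehicle array, 0 without any single wild-type array, none of which enters these means, and 1523 without WAT AP20187 1, the array highest in epididymal genes.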

How the results depend on the processing

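The vehicle comparison of 8533 features became 0 with the contradictory array placed in BAT, 19251 with no filter on dim probes and 4165 with the replicate block (fitted without that array, which carries no usable number; BAT and WAT share number 2 only, so the number pairs 1 array of each and is not a design of pairs). Leaving out 1 array gave 5310 (BAT vehicle 2) to 11077 (WAT AP20187 1). The AP20187 comparison of 8827 became 3702 with the contradictory array in BAT, 15451 with no filter, and 5876 (without BAT AP20187 2) to 10063 with 1 array left out. The interaction count of 10 became 0 without or with moved contradictory array, in the authors' table, with no filter and with the replicate block, 83 with the percentile over detected probes, 35 after quantile scaling, 93 after normexp, 295 with the stricter filter and 546 with a trended robust prior; with 1 array left out it ranged from 0 to 1523. The cause of these shifts was not tested. Among the named genes called, those that changed sign included Fabp4 (-0.19 quantile, -0.29 normexp), Acaa1a (-0.062 quantile, -0.068 normexp, -0.037 authors' table) and Scd1 (-0.018 normexp). The others were Thrsp (-0.061 quantile, -0.059 normexp), Kdr (-0.033 authors' table), Cd3e (-0.25 authors' table) and Hba-a2 (-0.37 quantile, -0.36 normexp). Of 176 named genes called, 158 passed without the contradictory array, 142 without BAT vehicle 2, 164 without BAT vehicle 3, 134 with the replicate block and 176 with slide as a random block. With slide as a random block 10574 features passed. That block cannot take a slide effect out of the tissue difference, since no slide holds both tissues, so its counts are no check on slide. Where leaving out an array left 1 in a group, that array was assumed to vary like the others. Signal over background limits BAT most, and several genes there have bounds only.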
